A study of Mus musculus and Homo sapiens with 9 samples.

Results

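The ubiquitin-specific proteases are the largest family of deubiquitinases, cysteine proteases that cut ubiquitin from proteins or trim ubiquitin chains. They set how long proteins persist and how signals run in the cell cycle, in DNA repair, at endosomes and at histones. Several act on the p53 pathway, among them Usp7, whose human counterpart removes ubiquitin from both MDM2 and p53. Thymine DNA glycosylase (TDG) starts base excision repair by cutting out thymine mispaired with guanine, and it also removes oxidised forms of methylcytosine. The genes were chosen by symbol, as every RefSeq protein-coding mouse gene named Usp followed by a number and optional letters. This gave 56 of 21887 protein-coding genes. The symbol also admits Usp6nl, which encodes a Rab GTPase-activating protein and no protease.

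Chromatin immunoprecipitation and sequencing (ChIP-seq) had been run on B16 mouse melanoma cells. The HA antibody was used to locate HA-tagged TDG and the p53 antibody to locate p53, with 1 library each, both from Tdg HA knockin cells without a stated treatment. The labels do not say whether the knockin line is 1 clone. The other 7 of 9 samples were not analysed here, among them the IgG and input samples, the HA antibody in WT cells and the p53 antibody in Trp53 KO cells. Whether the peaks depend on the tag or on p53 was therefore not tested, and no value below has a replicate. The HA list, whose entries are called TDG peaks below, held 3410 peaks with a median of 24 recovered reads at the summit, and the p53 list held 126 peaks with a median of 77.5. The peak lists hold no expression, so the cell type could not be checked against markers. The highest TDG peak lay at Tdg itself, 41 bases from a gene end (28.9-fold).

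TDG lay at the ends of 11 of the 56 Usp genes, namely Usp1, Usp3, Usp5, Usp8, Usp20, Usp22, Usp25, Usp28, Usp32, Usp36 and Usp39. A gene was counted when a TDG summit fell within 1 kb of either of its ends. The share was 19.6% (exact binomial 95% interval 10.2 to 32.4%, counting error only), against 11.7% of the 18842 other protein-coding genes on the same chromosomes. The background lay inside this interval, so at 1 kb and with the full list the difference was not detectable. In 2 of the 10 alternative settings run, the background lay outside the interval by a narrow margin. The alternatives used the same library and several counted the same 11 genes, so these 2 do not decide the question. The background lay below the interval with a 3 kb window (14 of 56 genes, 25%, interval 14.4 to 38.4%, against 13.7%) and with only the stronger peaks, those no lower in fold than the median of the list (8 of 56, 14.3%, interval 6.38 to 26.2%, against 6.24%). The 3 kb window added Usp18, Usp4 and Usp49, and the Usp49 summit lay at neighbouring genes. The 3 kb share without Usp49 was not computed. The background of these settings was not weighted by chromosome. TDG peaks were unevenly spread over chromosomes. With each Usp gene given the share of the other genes on its own chromosome, the background was 11.6%, or 6.50 genes of 56. Each of the 11 genes had exactly 1 TDG summit within 1 kb of its ends.

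Usp5 carried the strongest of these peaks. Usp5 encodes isopeptidase T, which takes apart free ubiquitin chains and so returns ubiquitin to the pool. The peak (mm10, chromosome 6, 124828663 to 124829897) was 1235 bases wide, with 45 reads at the summit and a fold enrichment of 11.9. The fold enrichment is the authors' ratio of the summit to the local background. It ranked 10 among the 3410 TDG peaks, and 5 of the 1875 peaks at ends of other genes only (0.267%) were as high. Its counting interval, taken from the exact Poisson 95% interval of the summit reads, ran from 8.74-fold to 15.8-fold. The summit lay 93 bases inside the upper-coordinate end of Usp5 (124815019 to 124829484) and 139 bases from the lower end of Cdca3, a cell cycle gene, so the peak belongs to both genes by distance.

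The other 10 peaks ranged from 4.37-fold to 8.14-fold. Usp36, which encodes a nucleolar deubiquitinase, had 33 reads and 8.14-fold (interval 5.68 to 11.3). Usp20, which encodes a deubiquitinase that binds the VHL protein in human cells, had 30 reads and 8.07-fold (interval 5.54 to 11.4). Usp3, which encodes a histone H2A deubiquitinase, had 27 reads and 7.29-fold (interval 4.90 to 10.5). These intervals all overlapped that of Usp5, as did those of Usp8, Usp22, Usp32 and Usp39.

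Usp32, which encodes a membrane-bound Golgi deubiquitinase, had 29 reads and 6.73-fold. Usp22, the H2B deubiquitinase of the SAGA coactivator complex, had 42 reads and 6.63-fold. Usp8, which acts on receptors at the endosome, had 24 reads and 6.51-fold. Usp39, a splicing factor whose protease domain lacks catalytic residues, had 27 reads and 6.49-fold. The lowest peaks lay at Usp25 (20 reads, 5.47-fold), Usp1 (20 reads, 5.40-fold) and Usp28 (32 reads, 4.37-fold). Usp1 acts on FANCD2 and PCNA in DNA repair, and Usp25 and Usp28 are close paralogues. The intervals of Usp25, Usp1 and Usp28 ended at 8.30, 8.18 and 6.11-fold, below the start of the Usp5 interval.

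**Figure D1:**
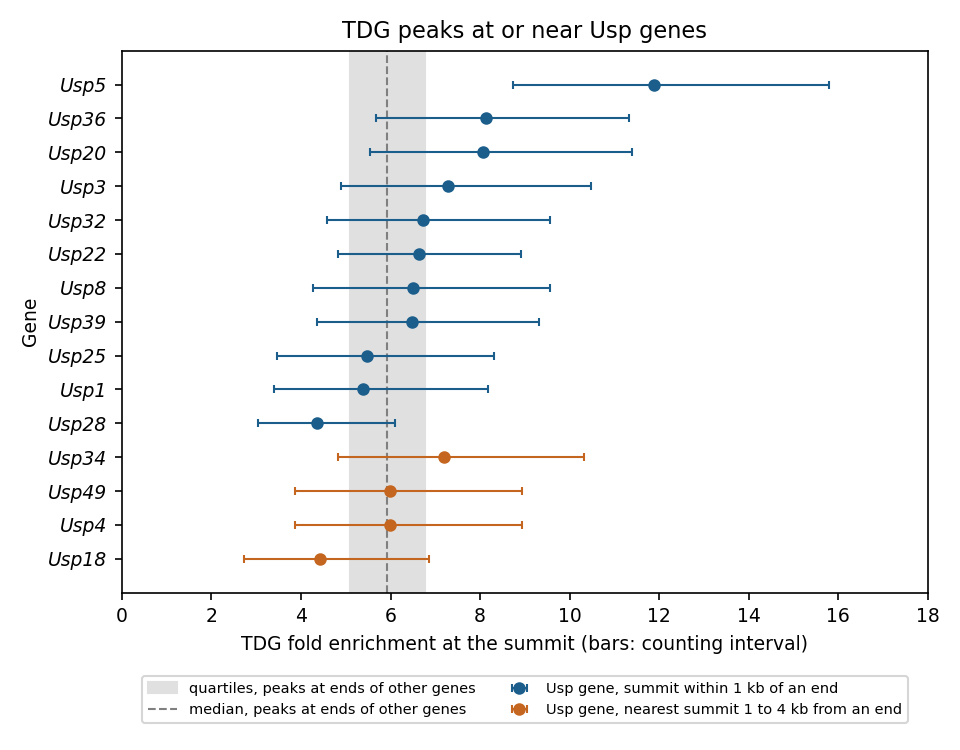
TDG fold enrichment at the summit (x axis, authors' ratio) for the Usp genes (y axis) with a TDG summit within 1 kb of an end (blue) or with their nearest summit 1 to 4 kb from an end (orange). Bars are intervals from the Poisson error of the summit reads, and the grey band and dashed line are the quartiles (5.10 to 6.78) and the median (5.93) of peaks at ends of other genes; only the Usp5 bar lies wholly above that median.

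The order by fold and the order by reads differed. Usp22 and Usp28 had 42 and 32 reads, but their recovered local backgrounds were 5 and 6. The genome-wide background was 2.558, which held at Usp3, Usp8, Usp20 and Usp25. Backgrounds are on the scale of the fold ratio, in which 1 summit read counts as 0.924. By reads Usp22 stood next to Usp5, and Usp28 stood next to Usp36. As a group, the 11 peaks had a median of 6.63-fold with quartiles of 5.98 and 7.68. The 1875 peaks at ends of other genes only had a median of 5.93-fold with quartiles of 5.10 and 6.78. Of the 11 peaks, 8 were above that median, and the intervals of 10 contained it. The median width was 372 bases for the Usp peaks and 426 bases for the others.

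The peaks lay on the start side of the genes wherever the orientation was available. A RefSeq promoter table (GRCm38.p6) gave the strand and annotated start of 43 of the 56 Usp genes, 7 of them among the 11 with a peak. Usp1, Usp5, Usp22 and Usp39 were the others of the 11. All 7 of these genes had the peak at the start side, as did 96.2% of 1897 other genes with an end peak and a known strand. The summit was outside the gene in 7 of the 11 Usp genes (63.6%) and in 54.1% of 2208 other genes with an end peak. The median distance to the gene end was 116 bases for Usp genes, with a range of 20 bases at Usp32 to 521 bases at Usp1, and 138.5 bases for other genes.

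Counting from annotated starts brought in Usp4 and Usp34, whose listed starts lay inside the widest gene model. Usp4, a paralogue of Usp11 and Usp15, had a TDG summit in its body 1365 bases from the lower gene end, and 98 bases downstream of its annotated start, with 22 reads and 5.99-fold. Usp34, which acts on axin in Wnt signalling in human cells, had a summit 3228 bases inside the gene and 482 bases upstream of its annotated start, with 27 reads and 7.19-fold. By this count 9 of 43 Usp genes (20.9%, exact binomial 95% interval 10.0 to 36.0%) had TDG within 1 kb of a start, against 13.2% of 15121 other genes with a promoter entry. The background again lay inside the interval. The summit was upstream of the start in 7 of the 9 Usp genes, at -482 (Usp34), -460 (Usp25), -306 (Usp32), -258 (Usp20), -208 (Usp28), -160 (Usp3) and -61 bases (Usp36), and downstream at Usp8 (35 bases) and Usp4. Their median was -208 bases, against -77 bases for 2000 other genes with quartiles of -181 and 44. Summits were upstream in 66.1% of these other genes.

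**Figure D2:**
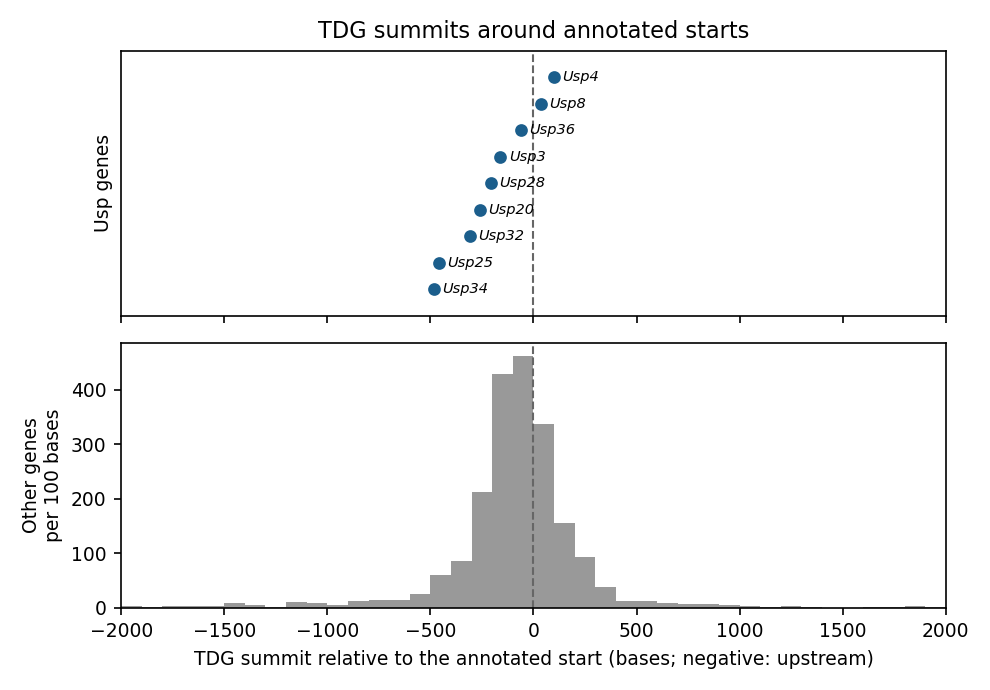
Position of the nearest TDG summit relative to the annotated gene start (x axis, bases, negative upstream). Upper panel, 1 point for each of the 9 Usp genes with a summit within 2000 bases of a start, all between -482 and 98 bases; lower panel, number of other genes per 100 bases (y axis), centred just upstream of the start with a median of -77 bases among those within 1 kb.

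The sequence before these starts was rich in CpG dinucleotides, the sites of DNA methylation in mammals. The 250 bases before the start are given below, 5′ to 3′ on the gene's strand, in lower case with each CpG in capitals (RefSeq, GRCm38.p6). Usp36, Usp20 and Usp3 are shown as the genes with the highest fold enrichment among those with an entry, and Usp4 as a member of the p53 pathway group with TDG at its start. Usp7 is shown as a gene of that group with more CpG and no TDG peak at its start, and Usp17ld as the entry without any CpG.
Usp36, chr11:118290245-118290494, minus strand: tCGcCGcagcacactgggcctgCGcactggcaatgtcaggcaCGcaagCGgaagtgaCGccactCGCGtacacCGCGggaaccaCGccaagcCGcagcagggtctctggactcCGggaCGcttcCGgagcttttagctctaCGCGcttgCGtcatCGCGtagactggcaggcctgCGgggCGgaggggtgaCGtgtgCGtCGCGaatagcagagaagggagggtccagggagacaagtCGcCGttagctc
Usp20, chr2:30982029-30982278, plus strand: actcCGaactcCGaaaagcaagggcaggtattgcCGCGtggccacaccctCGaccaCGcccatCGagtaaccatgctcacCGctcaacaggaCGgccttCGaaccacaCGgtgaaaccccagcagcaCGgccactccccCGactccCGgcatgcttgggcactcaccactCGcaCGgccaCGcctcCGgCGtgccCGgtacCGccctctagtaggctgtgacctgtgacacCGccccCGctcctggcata
Usp3, chr9:66593116-66593365, minus strand: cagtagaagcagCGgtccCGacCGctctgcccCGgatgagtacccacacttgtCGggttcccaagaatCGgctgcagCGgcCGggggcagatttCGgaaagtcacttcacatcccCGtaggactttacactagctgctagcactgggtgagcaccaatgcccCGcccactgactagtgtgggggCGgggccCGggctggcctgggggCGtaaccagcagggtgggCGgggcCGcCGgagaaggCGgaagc
Usp4, chr9:108347581-108347830, plus strand: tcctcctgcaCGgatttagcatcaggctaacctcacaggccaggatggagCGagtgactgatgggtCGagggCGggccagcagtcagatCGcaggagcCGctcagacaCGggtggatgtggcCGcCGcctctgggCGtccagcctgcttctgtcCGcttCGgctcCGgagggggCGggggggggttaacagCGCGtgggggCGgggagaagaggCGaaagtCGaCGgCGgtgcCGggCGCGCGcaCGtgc
Usp7, chr16:8738343-8738592, minus strand: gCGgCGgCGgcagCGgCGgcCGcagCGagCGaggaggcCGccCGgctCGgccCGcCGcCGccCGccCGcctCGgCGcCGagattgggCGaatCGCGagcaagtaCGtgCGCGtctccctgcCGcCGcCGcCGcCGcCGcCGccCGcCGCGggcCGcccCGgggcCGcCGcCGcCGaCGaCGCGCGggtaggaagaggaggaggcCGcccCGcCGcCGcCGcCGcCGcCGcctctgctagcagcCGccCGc
Usp17ld, chr7:103252506-103252755, minus strand: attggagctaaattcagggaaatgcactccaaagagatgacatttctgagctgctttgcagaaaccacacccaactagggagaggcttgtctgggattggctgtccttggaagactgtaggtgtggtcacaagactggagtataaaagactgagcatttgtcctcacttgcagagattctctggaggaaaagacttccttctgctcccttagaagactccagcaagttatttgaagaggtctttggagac
These stretches held 28 CpG at Usp36, 23 at Usp20, 18 at Usp3 and 26 at Usp4, and 55 at Usp7 and 0 at Usp17ld.

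Over the 300 bases of the table (250 before and 50 after the start), CpG content is given as the observed count over that expected from the C and G content. The 9 Usp promoters with TDG had a median ratio of 0.98, from 0.70 at Usp3 to 1.17 at Usp8. The 35 promoter entries of the 34 Usp genes without TDG had a median of 0.72 with quartiles of 0.41 and 0.88, so the groups overlapped. For other genes the medians were 0.82 in 2343 entries with TDG and 0.47 in 16055 without. A ratio of at least 0.6 was reached by 9 of 9 Usp entries with TDG and by 23 of 35 without, against 84.8% and 41.2% of the other entries. Among entries at or above that ratio, TDG lay within 1 kb of the start in 9 of 32 Usp entries (28.1%, exact binomial 95% interval 13.7 to 46.7%) and in 23.1% of 8594 other entries. At a ratio of at least 0.8 it was 8 of 23 Usp entries (34.8%, interval 16.4 to 57.3%) and 24.9% of 5038 other entries. The share of other entries lay inside the interval at both limits. The Usp family as a whole had more CpG-rich entries than the other genes (32 of 44, or 72.7%, against 46.7%). The part of this in the share of Usp genes with a peak was not tested beyond these values.

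**Figure D3:**
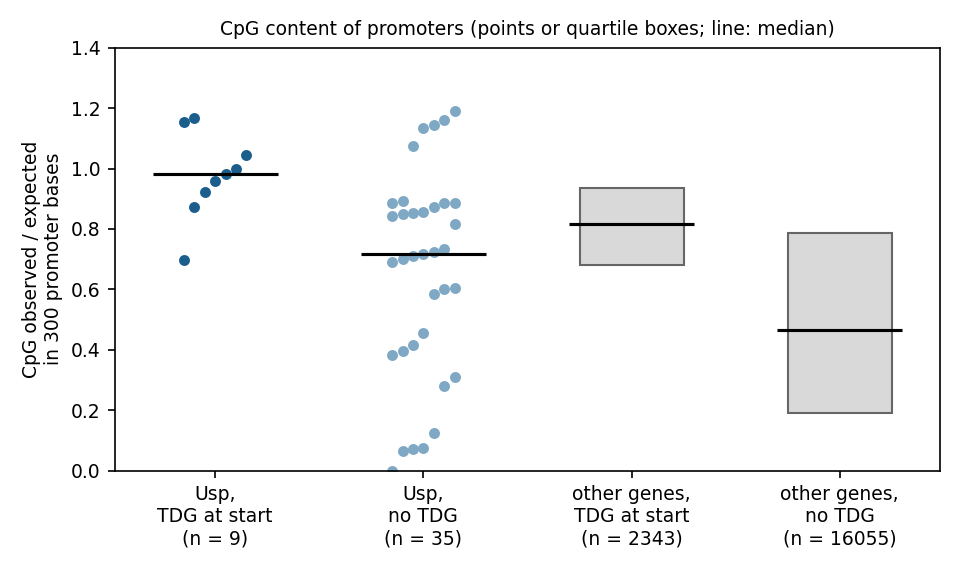
CpG observed over expected in 300 promoter bases (y axis) for promoter entries of Usp genes with and without a TDG summit within 1 kb of the start (points, 1 per entry) and of other genes with and without one (boxes, quartiles); lines are medians. The Usp medians are 0.98 with TDG and 0.72 without, and those of other genes 0.82 and 0.47.

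Exact motif matches were searched in the same 300 bases on both strands, and no motif contains another. The GC box, GGGCGG, to which Sp1 binds, occurred in 8 of 9 Usp entries with TDG and in 20 of 35 without. In other genes it occurred in 76.7% with TDG and 41.2% without, and in 45.8% of all 18442 entries. Usp25 was the entry with TDG that lacked it, although its CpG ratio was 1.15. The ETS core CCGGAA occurred in 3 of 9 Usp entries with TDG (Usp8, Usp32 and Usp36) and in 9 of 35 without. In other genes it occurred in 31.4% with TDG and 16.5% without, and in 18.4% of all entries. The CCAAT box, CCAAT, occurred in 3 of 9 and 11 of 35, against 43.1% and 37.3% in other genes and 38.1% of all. The E-box CACGTG occurred in 2 of 9 (Usp4 and Usp32) and 3 of 35, against 10.5% and 7.53% in other genes and 7.92% of all. The cAMP response element TGACGTCA was found in 0 of 9 Usp entries with TDG and in 1 of 35 without. In other genes it was found in 4.14% and 1.94%, and in 2.22% of all. The NRF1 core GCGCATGCGC was found in 0 of 9 and 0 of 35, against 2.9% and 1.13% in other genes and 1.36% of all. These are matches of letters in this window, not measured binding.

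The role lists overlapped, so that Usp1, Usp5 and Usp39, among others, each count in more than 1, and their small counts stand beside 11.7% of other genes and 19.6% of the whole family. The 9 genes linked to p53 and MDM2 (Usp2, Usp4, Usp5, Usp7, Usp10, Usp11, Usp24, Usp29 and Usp42) had 1 with a peak at an end, Usp5, and Usp4 had its peak at the annotated start. The nearest TDG summit to Usp7 lay 16547 bases below its lower end, and 22 bases from an end of Carhsp1. Usp10, which removes ubiquitin from p53 in human cells, had its nearest summit 631747 bases away. Of 12 genes acting on histones or in the DNA damage response, 4 had a peak (Usp1, Usp3, Usp22 and Usp28). Endosome and receptor genes had 2 of 6 (Usp8 and Usp20), and the genes for free ubiquitin and the proteasome 1 of 3 (Usp5, without Usp13 and Usp14). The genes whose products pair with WDR48 had 1 of 3 (Usp1), the organelle genes 1 of 3 (Usp36) and the splicing genes 1 of 3 (Usp39). The splicing list also holds Usp4, so with peaks at annotated starts it had 2 of 3. The p53 list rose likewise, and no other list changed. The shares of 11.7% and 19.6% are for ends only, and none was computed for ends and starts together. Innate immune genes had 1 of 5, Usp25. Usp18, the protease that removes the ubiquitin-like ISG15, lay just outside the limit, with a summit 1275 bases beyond its upper end (18 reads, 4.44-fold) and 546 bases from the noncoding gene Gm44148. The genes listed as inactive or no protease had 1 of 5, Usp39, and the germ cell and Y-linked genes 0 of 8. The 5 Usp17l genes are closely similar copies on chromosome 7, and the labels do not say how reads that match several copies were treated.

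Few Usp genes lay near the limit of 1 kb, although with the 3 kb window the background lay narrowly below the interval. Usp1, at 521 bases, was the outermost of the 11. Beyond the limit came Usp18, Usp4, Usp49 (1466 bases, 22 reads, 5.99-fold) and Usp34. The Usp49 summit lay 181 bases from an end of Tomm6, and also within 1 kb of Frs3 and Prickle4, while the summit nearest to the Usp49 start lay at -37174 bases, so the peak beyond its upper end lay at neighbouring genes. All other 41 Usp genes had no TDG summit in the gene or within 10 kb of it. Of those, 32 had none within 100 kb of an end. In all, 15 of 56 Usp genes (26.8%, exact binomial 95% interval 15.8 to 40.3%) had a summit in the gene or within 10 kb, against 18.4% of other genes. The background lay inside this interval. This count takes in the gene body, and Usp genes were longer than other genes. Median lengths were 40.4 kb with and 48.6 kb without an end peak, against 21.3 and 16.4 kb. The part of gene length in this share was not tested.

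**Figure D4:**
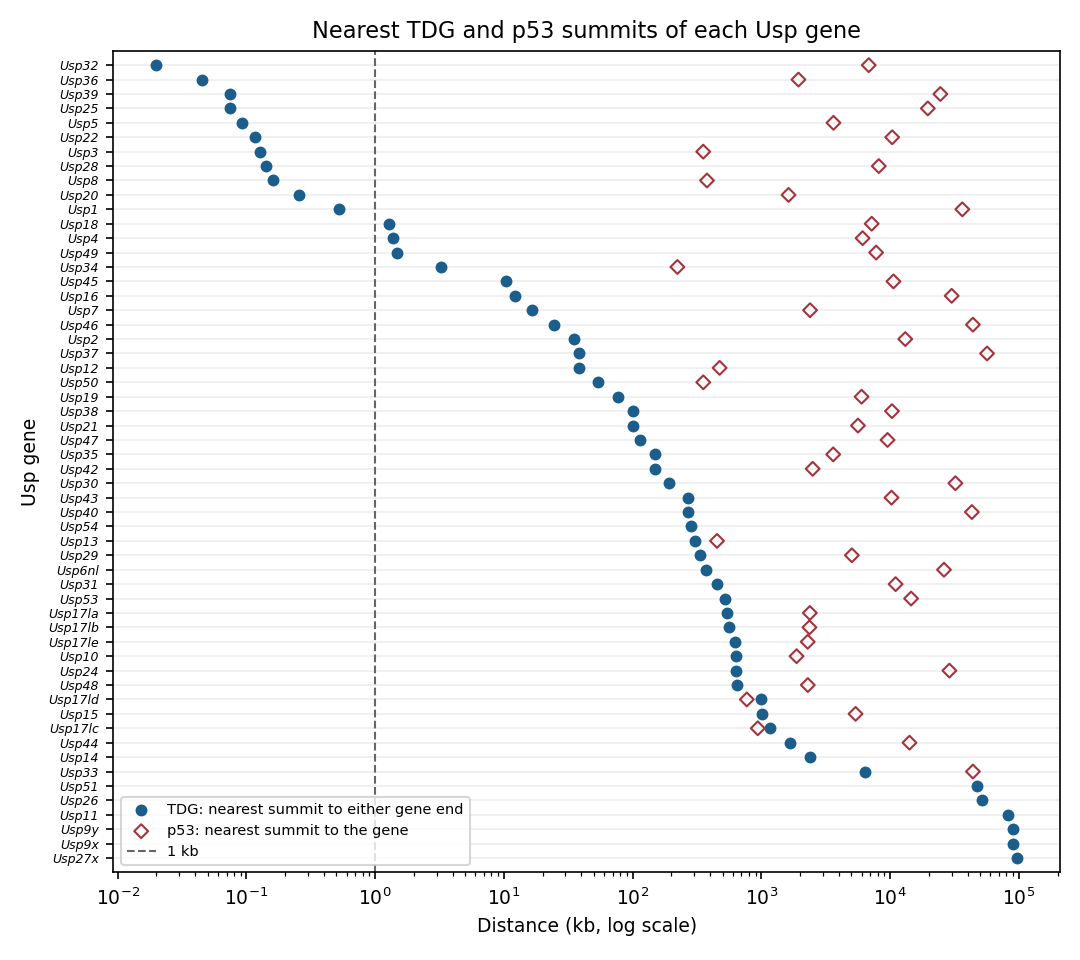
Distance in kb (x axis, log scale) from each of the 56 Usp genes (y axis) to its nearest TDG summit, from either gene end (filled circles), and to its nearest p53 summit (open diamonds; absent for 8 genes on chromosomes without a p53 peak). TDG distances step from 11 genes under 1 kb to 4 genes under 4 kb and then to over 10 kb, while no p53 summit lies nearer than 222521 bases.

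Chromosomes contributed unequally. Chromosomes 6, 11 and 16, where 25.6%, 19.6% and 23.1% of other genes had an end peak, held 2 of 3, 3 of 5 and 1 of 3 Usp genes with one. Chromosome 7 held 9 Usp genes and none had one, against 10.7% of its other genes. The X chromosome held 5 Usp genes (Usp9x, Usp11, Usp26, Usp27x and Usp51) and the Y chromosome Usp9y, all without a peak, and 1 of 961 other X genes had one. On the autosomes alone the shares were 11 of 50 Usp genes (22%, exact binomial 95% interval 11.5 to 36.0%) and 12.5% of other genes.

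**Figure D5:**
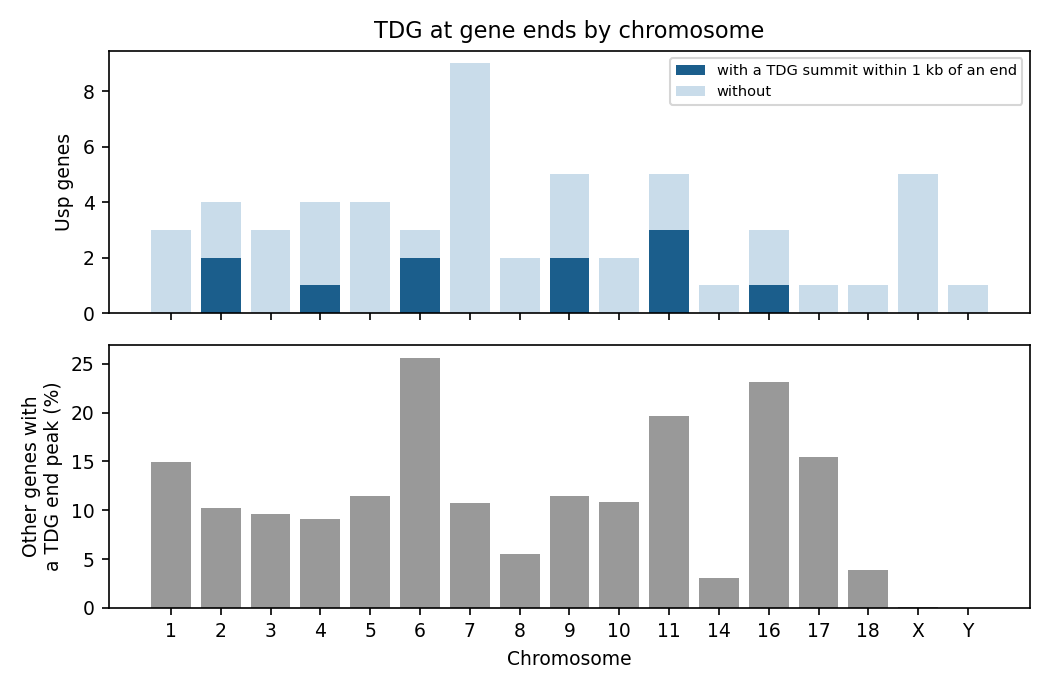
Upper panel, number of Usp genes on each chromosome (y axis) with (dark) and without (light) a TDG summit within 1 kb of an end; lower panel, percent of the other protein-coding genes on that chromosome with one. Chromosomes 6 and 16 have the highest background, at 25.6% and 23.1%, and X and Y hold 6 Usp genes and no Usp gene with a peak.

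No Usp gene was assigned a p53 peak, that is, none held a p53 summit or was the gene with the nearest end. The share was 0 of 56, which by 3 counts allows up to 5.36% and has an exact binomial 95% interval of 0 to 6.38%, against 0.504% of other genes. At that background the number reached by 56 genes would be 0.29 with the shares of their own chromosomes, so a lack of p53 at this family could not be told from the background. The nearest p53 summit to any Usp gene lay 222521 bases from Usp34, and the median over the 48 genes on chromosomes with a p53 peak was 6462960.5 bases. Among the genes with TDG at an end, Usp3 (353161 bases) and Usp8 (377797 bases) lay nearest to a p53 summit.

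Genes of other deubiquitinase families were set beside the Usp genes. Whether each listed gene encodes an active deubiquitinase was not checked. The list holds, for example, the complex subunits Psmd7, Cops5, Cops6 and Eif3h, none of them with an end peak. Of the 38 listed genes, TDG lay at an end of 6 (15.8%, exact binomial 95% interval 6.02 to 31.3%), against 11.6% of other genes on their chromosomes. The intervals of this list and of the Usp genes overlapped. The 6 were Mindy4 (7.85-fold), Mindy2 (7.29-fold), Josd2 (7.03-fold), Otud4 (5.73-fold), Otud1 (5.33-fold) and Otub1 (4.18-fold). Their median was 6.38-fold, against 6.63-fold at Usp genes, with ranges that overlapped. Genes for the deubiquitinases of the proteasome lid and of BRCA1 complexes, Psmd14 and Brcc3, had no TDG peak at an end, and none of the 38 was assigned a p53 peak. Brcc3 lies on the X chromosome, where only 1 of 961 genes outside the Usp family had an end peak.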

How the data were processed

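The authors deposited 1 peak list for each of 2 libraries in the narrowPeak layout, with mm10 coordinates. Per the submitters' processing notes the tools were MACS2, Bowtie2, Trim Galore, Picard, ChIPseeker and deepTools, whose versions and roles they do not state. Per the labels, fixation took 10 min in 1% formaldehyde and sheared DNA was about 300 bp long. The deposited fold enrichment is a ratio of summit to local background with 1 added to each. The deposited −log10 p and −log10 q refer to the summit, and the deposited score is 10 times −log10 q, truncated. No source used here gives the control library or the threshold. Summit reads and local background were solved from fold and p, which gave whole reads within 0.05 for 99.97% of TDG and 98.41% of p53 peaks. The scale was chosen to make reads whole. Where the genome-wide background was not a solution, the solution nearest to whole reads was taken. These percentages are therefore partly set by the fit and are no independent check. The solving was tested on simulated data made with the same formula. Summit values were divided by a scale found from each list (0.924 for TDG, 0.7924 for p53) to give reads, and backgrounds were not. Fold enrichments were compared within a list only. Genes came from RefSeq GRCm38.p6. Analysis used Python 3.11.15, pandas 2.3.3, NumPy 2.4.6 and SciPy 1.17.1. Every Usp gene with a TDG summit within 1 kb of an end, or just outside, is named by rule, with up to 6 other deubiquitinases. Psmd14, Brcc3, Mindy1, Atxn3, Psmd7, Cops5, Cops6 and Eif3h were named after their values were seen. The members and lists were chosen with earlier results of these data known. With 1 library per list, no test between groups was run, and exact intervals cover counting error only. Neighbouring genes are not independent.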

Additional observations from a re-analysis of the deposited data

How the results depend on the processing

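The TDG share of Usp genes, 19.6% as reported, lay between 14.3% (peaks at or above the list's median fold enrichment, where other genes had 6.24%) and 25% (a 3 kb window, 13.7%) under the 10 alternatives run. It stayed above the share of other genes in each. The alternatives used the same library and several counted the same 11 genes, so they are not independent checks. In 8 of the 10 the share of other genes lay inside that setting's own exact interval. In those 2 it lay narrowly below the interval (6.38 to 26.2% and 14.4 to 38.4%). The cause was not tested. Counting a peak only for the gene with the nearest end, a choice made after the data were seen, left 10 of 56, without Usp20, whose summit was 80 bases from BC005624. The share of other deubiquitinases ran from 7.89% (other genes 6.19%) to 23.7% (other genes 13.4%) over 8 alternatives. With a window of 500 bases it was 10.5%, against 10.4%. The share of other genes lay inside that setting's own interval in all 8. The median fold enrichment at Usp genes stayed between 6.49 and 6.68. On the −log10 q scale it was 11.5, against 8.59 for other genes. The p53 count was 0 under 3 alternatives, and the CpG ratio 0.92 before the start only. No paired analysis was possible because each group has 1 library. About 15 to 45 summit reads per peak limit the comparison of folds between genes.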

Other observations

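Some peaks at Usp genes lay close to other genes. Besides the Usp5 and Cdca3 pair, the Usp32 summit lay 88 bases from the end of 1700125H20Rik and the Usp28 summit 48 bases from the noncoding gene Gm51673. In all, 3 of the 11 Usp peaks lay within 1 kb of another protein-coding gene's end (27.3%), against 33.0% of the genes of the background with a peak.

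Around Usp5 there were 2 further TDG peaks within 10 kb, both nearest to Spsb2, at 8.33-fold (31 reads, 207 bases from Spsb2) and 6.25-fold (23 reads). A further summit lay 2889 bases beyond the lower end of Usp3, at 5.99-fold with 22 reads, and its nearest gene end was that of Fbxl22, 2843 bases away. Among other deubiquitinases, Mindy1 (1009 bases, 4.70-fold) and Atxn3 (1147 bases, 4.18-fold) lay just outside the 1 kb limit. Usp genes were long, with a median length of 40.4 kb for the 11 with a peak and 48.6 kb for the 45 without, against 21.3 kb and 16.4 kb for other genes with and without a peak.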
